A study of Arabidopsis thaliana with 6 samples.

Results

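UDP-glycosyltransferases (UGT) and beta-glucosidases (BGLU) were followed in whole light-grown *Arabidopsis thaliana* seedlings, 5 days old, of the Nossen accession (No-0). Members were the probe sets paired with exactly 1 gene whose symbol is UGT or BGLU followed by a digit, with *UGT78D2* left out. They were 66 of the 22746 probe sets analysed, for 66 different genes, 46 UGT and 20 BGLU. RefSeq holds 98 genes with a symbol of this form, so both families are covered only in part. The wild type was compared with *fbp7-3*, a mutant of the F-box protein gene *FBP7* in the same accession, with 3 samples in each group and 1 Affymetrix ATH1 array per sample. RNA came from whole seedlings ground together, so fewer cells of a type and less RNA per cell cannot be told apart. The sources used here describe neither the lesion in *fbp7-3* nor a second allele, and the level of *FBP7* itself was not analysed here. They also do not say whether the seedlings of different samples were grown separately, and p-values therefore measure only how these 6 samples vary, which may be technical.

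UGT enzymes move a sugar from a UDP-sugar onto small molecules such as flavonoids, monolignols, hydroxycinnamic acids, glucosinolate precursors and hormones, which makes them more soluble and usually less active, and lets them be stored. Beta-glucosidases of the BGLU family run the other way and release the aglycone from stored glucosides, among them monolignol glucosides, scopolin, abscisic acid glucose ester and, in the myrosinase branch, glucosinolates. In seedlings the BGLU enzyme PYK10 is the main protein of ER bodies, compartments of epidermal and root cells that belong to the chemical defence against herbivores and microbes. Many genes of both families stand in tandem arrays of close relatives, so a probe set designed for one copy may also bind transcripts of the next, and this was not separated here.

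Signals are MAS5 intensities on a linear scale, with a trimmed mean of 500 on each array as deposited, and array medians lay between 188.7 and 200.7. Across probe sets, log2 signals of arrays within a group correlated at r = 0.971 to 0.977, and those of a wild type with a mutant array at r = 0.967 to 0.973. An index of RNA quality, the mean log2 ratio of 3′ to 5′ signal over 6 pairs of control probe sets, ran from 0.878 to 0.998 on wild type arrays and from 1.069 to 1.334 on mutant arrays, without overlap. Genotype and this index are therefore confounded, and a fit with both cannot reliably tell them apart. Values with the covariate show how far a change depends on the model and are not corrected estimates. With that index as a covariate the sign of the change turned for 18 of the 66 members, and 28 more moved by over 1.5 times. The value with the covariate is given for each of the 15 members with an unadjusted p under 0.05 (limma), none of which changed sign. These 15 were picked for a small p in these same data, which favours a kept sign. The smallest adjusted p of a member in the fit with the covariate was 0.676 (limma).

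None of the 66 members passed the comparison of mutant with wild type over all probe sets (limma, Benjamini-Hochberg adjusted p under 0.05), where 75 of 22746 probe sets did, or 0.33%. The smallest adjusted p of a member was 0.17, for *UGT85A5*. Without the dimmest 25% of probe sets, 44 members remained in the fit and again none passed, against a background of 1.06%, with *BGLU19* nearest to the threshold at an adjusted p of 0.0523. At an unadjusted p under 0.05 there were 15 members, 6 of them higher and 9 lower in the mutant, against a background of 10.3% of all probe sets in either direction, 5.23% higher and 5.05% lower. In the fit without the dimmest 25%, 12 of the 44 members had an unadjusted p under 0.05, where the background was 11.8%. Mutant and wild type arrays did not overlap for 19 members, where 15.5% of all probe sets had this order. In 7 of the 19 each mutant array was higher (background 8.11%) and in 12 each was lower (7.39%).

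The log2 changes of the members, all on the log2(signal + 16) scale, ran from −2.13 to 1.09 with a median of −0.00, beside a median of 0.01 over all probe sets. UGT members had a median of −0.05, with 26 below and 20 above 0. For BGLU the median was 0.16, with 7 below and 13 above 0, but over the 13 BGLU members outside the dimmest 25% it was 0.0205. The BGLU median was −0.23 with the RNA quality covariate and 0.0185 without mutant replicate 3. A log2 change of at least 1 in size was seen for 4 members, *BGLU19*, *UGT84A1*, *BGLU36* and *BGLU41*, where the background was 1.47%. All but *BGLU19* had low signals. Of the 44 members outside the dimmest 25%, 40 had a log2 change between −0.5 and 0.5. The 95% interval of the change lay within −0.5 to 0.5 for 17 of the 66 members and within −1 to 1 for 42, so for the remaining members a change of the latter size was not bounded by these arrays.

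**Figure D1:**
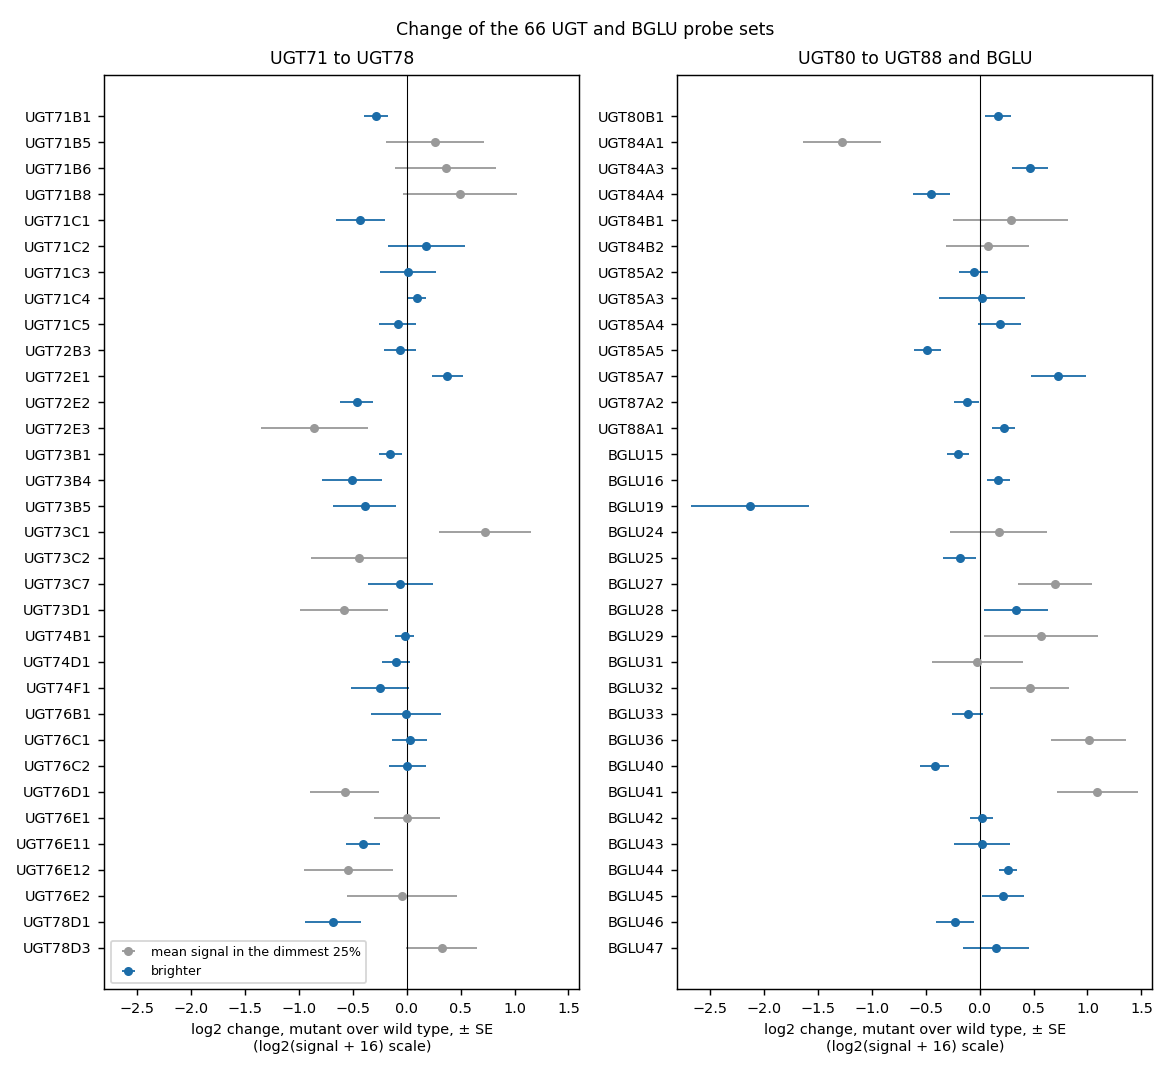
Log2 change of each of the 66 members, mutant over wild type, on the log2(signal + 16) scale, with bars of 1 SE from limma and 3 arrays in each group. Blue points are members outside the dimmest 25% of all probe sets and grey points are members within it. *BGLU19*, at −2.13, lies farthest from 0.

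Variation between arrays was lower once dim members were left out, although some brighter members also varied. Of the members, 22 lay in the dimmest 25% of all probe sets by mean log2 signal (15 UGT and 7 BGLU), at signals of about 36.0 or less, and 31 lay above the median of all probe sets. The median coefficient of variation between arrays of one group was 21.0% for wild type and 22.0% for mutant arrays over all members. Over the 44 members outside the dimmest 25% it was 14.6% and 10.9%. In the plot of signal against change the spread of all probe sets widens toward low signal, and most members lie within that spread. Signals of different probe sets are not ranked against each other here, since they also depend on the probes.

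**Figure D2:**
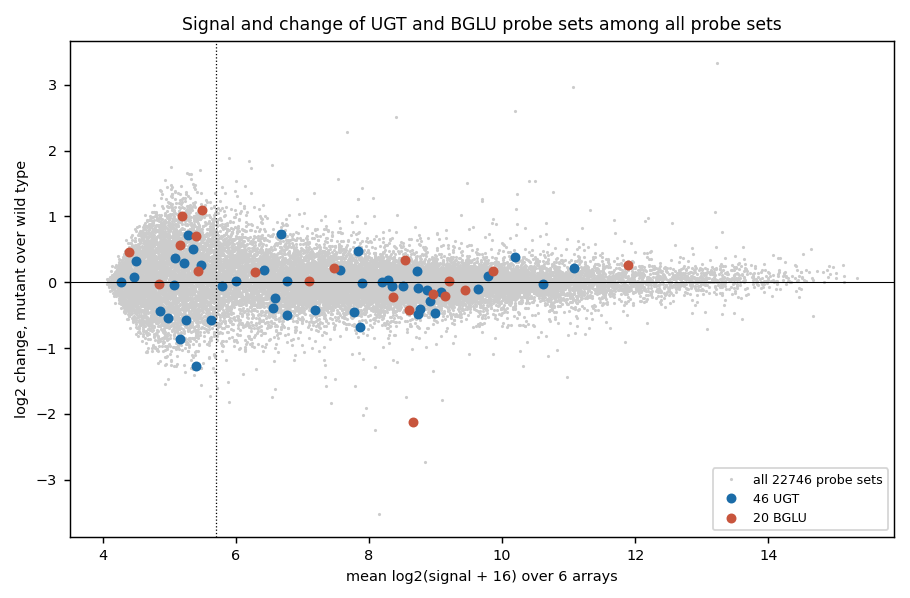
Log2 change, mutant over wild type, against mean log2(signal + 16) over the 6 arrays. Grey points are all 22746 probe sets, blue points the 46 UGT and red points the 20 BGLU members. The dotted line marks the limit of the dimmest 25%, left of which 22 members lie, and *BGLU19* is the red point near −2.13.

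Genes for enzymes that act on monolignols, the building blocks of lignin, or on their aldehydes or glucosides had changes on both sides of 0. None of them passed. *UGT72E2*, whose enzyme glucosylates coniferyl and sinapyl alcohol, had wild type signals of 670.7, 562.1 and 525.7 and mutant signals of 410.5, 347.0 and 514.3. Each mutant array was below each wild type array, the nearest pair being 514.3 and 525.7. Its log2 change was −0.46 ± 0.15 (SE), with an adjusted p of 0.303 (limma), and −0.78 with the RNA quality covariate. *UGT72E1*, which acts on the corresponding aldehydes, gave 1253.4, 880.9 and 925.1 in the wild type and 1460.3, 1116.7 and 1386.5 in the mutant. Wild type replicate 1 overlapped the mutant arrays, and the change was 0.38 ± 0.14 (adjusted p = 0.387), or 0.22 with the covariate. *UGT72E3*, the third enzyme of this group, was dim, at 40.97 ± 36.31 (SD, n = 3) and 11.47 ± 7.52, and its change of −0.85 ± 0.50 had an interval from −1.95 to 0.24 and was −0.82 with the covariate. *UGT72B3* was at −0.06 ± 0.15, and its close relative *GT72B1*, also named UGT72B1 and no member by its symbol, at −0.12 ± 0.13. On the releasing side, *BGLU45* and *BGLU46*, both of which hydrolyse monolignol glucosides, were at 0.21 ± 0.19 and −0.23 ± 0.18, and *BGLU47*, of the same branch, at 0.15 ± 0.31, each with overlapping groups. With the covariate these 3 were at 0.02, −0.45 and −0.40. A listed gene or marker counts as measured here only if the annotation pairs a probe set with it alone. Those not counted may still be on the array. Of 15 listed genes of phenylpropanoid and lignin synthesis 1 was measured in this sense and none passed. This was *HCT*, which makes the shikimate esters of the pathway, with signals of 2209.8, 2344.2 and 2286.5 in the wild type and 2631.6, 2659.3 and 2783.0 in the mutant. All mutant arrays were above all wild type arrays, at a change of 0.24 ± 0.08 (adjusted p = 0.3).

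The UGT84A enzymes form glucose esters of hydroxycinnamic acids, which seedlings use to make sinapate esters. Their measured genes *UGT84A1*, *UGT84A3* and *UGT84A4* follow each other on chromosome 4, and each separated the groups. *UGT84A2* is not among the members. *UGT84A3* had signals of 175.3, 166.6 and 193.1 in the wild type and 283.5, 232.1 and 244.9 in the mutant. Higher on each mutant array, it was at 0.47 ± 0.16 (adjusted p = 0.344), and at 0.49 with the covariate. *UGT84A4* stood at 220.9, 226.2 and 276.2 in the wild type against 162.8, 164.2 and 188.5 in the mutant. It was lower on each mutant array, at −0.45 ± 0.17 (adjusted p = 0.395), and at −0.62 with the covariate. *UGT84A1* was dim, with wild type signals of 37.4, 56.1 and 57.1 and mutant signals of 4.6, 26.0 and 7.1. All 3 mutant arrays lay below the lowest wild type array, and the change of −1.27 ± 0.36 (adjusted p = 0.227) ranged from −1.59 to −1.07 when 1 array was left out. It was −2.23 with a pseudocount of 1, −0.58 with one of 64, and −1.03 with the covariate. The other UGT84 members, the auxin glucosyltransferase gene *UGT84B1* and its neighbour *UGT84B2*, were dim, at 0.29 ± 0.53 and 0.08 ± 0.38.

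**Figure D3:**
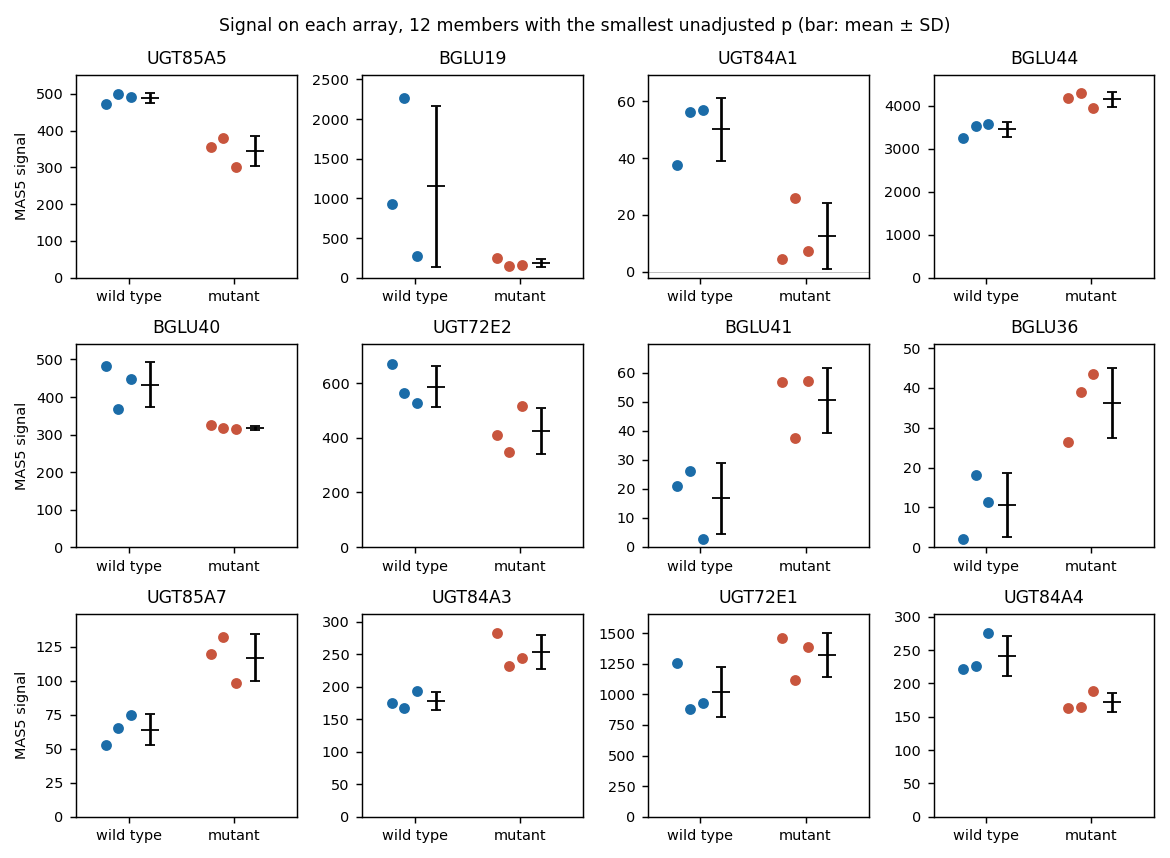
MAS5 signal on each of the 6 arrays for the 12 members with the smallest unadjusted p, wild type in blue and mutant in red, with the mean ± SD (n = 3) as a bar beside each group. The vertical axes differ between panels. Groups overlap only for *UGT72E1*, and the wild type arrays of *BGLU19* range from 270.0 to 2265.3.

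Flavonol glycosylation was represented by UGT78 genes. *UGT78D1*, a flavonol rhamnosyltransferase gene, had wild type signals of 290.9, 202.6 and 367.8 and mutant signals of 221.4, 186.9 and 114.4. The groups overlapped between wild type replicate 2 and mutant replicate 1, and the change was −0.68 ± 0.26 (adjusted p = 0.395). With the RNA quality index in the fit it was −0.34. *UGT78D3*, whose enzyme adds arabinose to flavonols, was among the dimmest, at 0.33 ± 0.33. The neighbouring *UGT78D2*, which glucosylates flavonoids and is kept out of the members, was at −0.39 ± 0.12. *BGLU15*, which hydrolyses a flavonol glucoside, gave 555.3, 606.1 and 605.2 in the wild type and 490.2, 512.1 and 526.9 in the mutant. Lower on each mutant array, it had a change of −0.20 ± 0.10 (adjusted p = 0.544). Of 13 listed genes of flavonoid and anthocyanin synthesis 2 were measured and neither passed. *DFR*, of the anthocyanin branch, was at −0.96 ± 0.27 (adjusted p = 0.233), and the proanthocyanidin gene *BAN*, at 13.2 ± 18.3 and 17.4 ± 13.4, was dim. *UF3GT*, also named UGT79B1, which extends the sugar of anthocyanins, was at 0.45 ± 0.36 with overlapping groups.

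Several members act on hormones. For abscisic acid, *UGT71B6*, whose enzyme glucosylates it, and the related *UGT71B5* and *UGT71B8* were dim, with changes of 0.36 ± 0.47, 0.26 ± 0.45 and 0.50 ± 0.53. *UGT71C5*, which also makes the glucose ester of abscisic acid, was at 424.7 ± 44.1 (SD, n = 3) on wild type and 407.0 ± 97.5 on mutant arrays, a change of −0.08 ± 0.17. *BGLU33*, whose enzyme releases abscisic acid from that ester in the vacuole, was at −0.11 ± 0.15. For cytokinins, the N-glucosyltransferase genes *UGT76C1* and *UGT76C2* were close to 0, at 0.03 ± 0.16 and 0.01 ± 0.17, with intervals from −0.33 to 0.39 and from −0.37 to 0.38. With the covariate they were at −0.29 and −0.13. *UGT73C1*, whose enzyme O-glucosylates cytokinins in vitro, was dim, at 0.72 ± 0.43 (adjusted p = 0.605), and at 1.603 with the covariate. For auxin, *UGT74D1* had a change of −0.10 ± 0.13, with signals of 817.4 ± 144.7 and 756.1 ± 62.8. For salicylic acid, *UGT74F1* was at −0.25 ± 0.27 and *UGT76B1*, which also acts on the branched acid ILA and on N-hydroxypipecolic acid, at −0.01 ± 0.33. The latter varied in the wild type, at 289.9, 332.3 and 112.4, and the mutant arrays at 282.3, 198.7 and 193.6 lay inside that range. *UGT76D1*, which glycosylates dihydroxybenzoic acids derived from salicylic acid, was dim and lower on each mutant array. Its signals were 39.2, 37.5 and 59.0 in the wild type and 33.9, 15.9 and 26.1 in the mutant, a change of −0.57 ± 0.32 (adjusted p = 0.581). Of 21 listed genes that make or remove these hormones 2 were measured and neither passed, *GH3.3* at −0.27 ± 0.20 and *WES1* (GH3.5) at −0.04 ± 0.17, both encoding enzymes that join auxin to amino acids.

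In the glucosinolate pathway, *UGT74B1*, which adds the glucose of the glucosinolate core, had signals of 1680.5, 1470.8 and 1537.4 in the wild type and 1634.8, 1506.6 and 1483.2 in the mutant. Its groups overlapped, and its change of −0.02 ± 0.09 had a 95% interval from −0.21 to 0.17. Its relative AT2G31790 (UGT74C1), listed under its locus and so no member, was lower on each mutant array, with 1771.8, 1457.5 and 1646.1 in the wild type and 1369.4, 1375.8 and 1383.4 in the mutant. The change was −0.23 ± 0.09 (adjusted p = 0.407). Of 23 listed genes of glucosinolate synthesis 5 were measured, 4 of them below 0, and none passed. *AOP3*, which modifies glucosinolate side chains, was at 4291.7, 3078.2 and 3904.5 in the wild type and 2845.8, 2655.3 and 1901.8 in the mutant. That is a change of −0.61 ± 0.16, with an adjusted p of 0.169, or 0.065 without the dimmest probe sets. With the covariate it was −0.37 (adjusted p = 0.905).

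On the side of glucosinolate breakdown, *BGLU28*, a beta-glucosidase induced when sulfur is scarce, had wild type signals of 291.1, 338.1 and 314.3 and mutant signals of 375.4, 720.9 and 234.7. Mutant replicate 2 was the highest and mutant replicate 3 the lowest of the 6 arrays, and the change was 0.34 ± 0.30. It was −0.0749 without mutant replicate 2, 0.70 without mutant replicate 3 and 1.09 with the covariate. *BGLU36*, of the myrosinase branch, was dim, with 2.1, 18.1 and 11.4 in the wild type against 26.3, 39.0 and 43.4 in the mutant. Each mutant array was higher, at 1.01 ± 0.35 (adjusted p = 0.334) and 0.98 with the covariate. *BGLU27*, of the branch that also holds the defence glucosidase PEN2, was likewise dim and higher on each mutant array, at 0.70 ± 0.35 (adjusted p = 0.531). Of 12 listed genes of myrosinases and glucosinolate breakdown 1 was measured, AT1G54020, a GDSL lipase-like gene, at −0.88 ± 0.54 (adjusted p = 0.63), and at 0.48 with the covariate.

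*BGLU19*, from the same branch of the family as the ER body enzyme PYK10, had the largest change of all members. Its wild type signals were 925.5, 2265.3 and 270.0, and its mutant signals 243.9, 142.4 and 162.6. The wild type arrays differed more among themselves than wild type replicate 3 differed from the mutant arrays, although no array overlapped. The coefficient of variation was 88.2% among wild type and 29.4% among mutant arrays. The change was −2.13 ± 0.55 (adjusted p = 0.173), with a 95% interval from −3.34 to −0.92. Without wild type replicate 3 it was −2.91 and passed, with an adjusted p of 0.0143, without wild type replicate 2 it was −1.42, and with the RNA quality covariate −1.28 (adjusted p = 0.906). Of 6 listed markers of seed storage and embryo 1 was measured, the isocitrate lyase gene *ICL*, which serves the use of seed oil, at 220.3, 404.8 and 88.5 in the wild type and 51.1, 161.2 and 82.5 in the mutant. *ICL* and *BGLU19* were both highest in wild type replicate 2 and lowest, among wild type arrays, in replicate 3. Among mutant arrays their order was opposite. There *ICL* was highest in replicate 2 and lowest in replicate 1, while *BGLU19* was lowest in replicate 2 and highest in replicate 1. The part of seed reserves in the change of *BGLU19* was not tested.

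Other genes of the PYK10 branch and of ER bodies differed less. *BGLU25* was at −0.18 ± 0.15 with overlapping groups, and *BGLU24* was dim, at 0.18 ± 0.45. A probe set shared by *BGLU21* and *BGLU22*, and so no member, was at −0.27 ± 0.16 with overlapping groups. *ATA27*, also named BGLU20 and no member by its symbol, was dim, at 0.60 ± 0.46. *PYK10* itself, also named BGLU23 and no member by its symbol, had signals of 22768.0, 22006.0 and 23648.1 in the wild type and 22532.4, 18403.2 and 21475.7 in the mutant. These groups overlapped, at −0.14 ± 0.12 (adjusted p = 0.758). Of 10 listed ER body genes 4 were measured, 3 of them below 0, and none passed. *NAI2*, which is needed for ER bodies to form, was at −0.32 ± 0.13 (adjusted p = 0.427). The jacalin lectin gene *JAL33*, whose relatives assemble with PYK10, was at −0.29 ± 0.11 (adjusted p = 0.413), and *NAI1*, the transcription factor of the pathway, at 0.02 ± 0.14. Root and root hair markers, of which 3 of 6 were measured, summed to signals of 377.1 to 584.9 on wild type arrays and 303.6 to 387.6 on mutant arrays. All 3 markers were below 0 and none passed, and their part in the changes of genes expressed in roots was not tested. The single measured markers of green leaf (*RCA*, 1 of 5) and of epidermis and guard cells (*FMA*, 1 of 4) were at 0.03 ± 0.12 and 0.54 ± 0.22 and did not pass. None of the 4 vascular markers had a probe set that the annotation pairs with it alone.

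Among the remaining BGLU genes, *BGLU44*, whose enzyme also cleaves beta-mannosides, had the smallest standard error of the 66 members. Its signals were 3254.0, 3531.9 and 3571.9 in the wild type and 4170.5, 4304.0 and 3955.8 in the mutant. Each mutant array was higher, and the change of 0.26 ± 0.08 had an interval from 0.08 to 0.44 (adjusted p = 0.281) and was 0.35 with the covariate. Beside it in the genome, *BGLU43* was at 0.02 ± 0.26. *BGLU40* gave 483.0, 367.2 and 447.8 in the wild type and 324.8, 316.5 and 314.2 in the mutant. It was lower on each mutant array, at −0.41 ± 0.13 (adjusted p = 0.29) and −0.50 with the covariate, and the mutant arrays were close together, with a coefficient of variation of 1.75% against 13.7%. *BGLU41* was dim, with 21.1, 26.1 and 2.8 in the wild type and 56.9, 37.4 and 57.0 in the mutant, each mutant array being higher, at 1.09 ± 0.37 (adjusted p = 0.332). With the covariate it was 1.17. *BGLU42*, which acts in the secretion of coumarins by roots short of iron, was at 571.8 ± 51.5 and 579.1 ± 27.1, a change of 0.02 ± 0.11. *BGLU16* was at 0.17 ± 0.10 with overlapping groups. *BGLU29*, *BGLU31* and *BGLU32* were dim, with changes from −0.02 to 0.57 and intervals that include 0.

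In the UGT85 family, of which a further member glucosylates the cytokinin trans-zeatin, neighbouring genes stood on opposite sides of 0. *UGT85A5* had the smallest p of all members, with signals of 473.0, 500.1 and 490.2 in the wild type and 355.0, 379.6 and 300.7 in the mutant. The groups were well apart, and the change was −0.49 ± 0.12, from −0.56 to −0.39 when 1 array was left out, and −0.28 with the RNA quality covariate (adjusted p = 0.91). *UGT85A7* lay the other way, at 52.6, 65.1 and 74.9 in the wild type and 120.1, 132.6 and 98.4 in the mutant. Its change was 0.73 ± 0.25 (adjusted p = 0.336), and 0.96 with the covariate. *UGT85A2*, *UGT85A3* and *UGT85A4* overlapped between the groups, at −0.05 ± 0.14, 0.02 ± 0.40 and 0.18 ± 0.20.

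Of the 7 UGT73 members, a family that includes genes induced by stress and by xenobiotics, 6 were below 0, with a family median of −0.39. The exception was *UGT73C1*, given above. Of all probe sets 48.3% were below 0. None of the 7 members had an unadjusted p under 0.05 (limma), and 3 were dim. *UGT73B1* gave 586.1, 562.4 and 522.7 in the wild type and 478.1, 511.4 and 509.3 in the mutant, lower on each mutant array at −0.15 ± 0.10. *UGT73B4*, whose enzyme conjugates the explosive TNT, was at −0.50 ± 0.28 (adjusted p = 0.571), and its neighbour *UGT73B5* at −0.39 ± 0.29, both with overlapping groups. *UGT73C2*, *UGT73C7* and *UGT73D1* were at −0.44 ± 0.44, −0.06 ± 0.30 and −0.58 ± 0.41. The family median was −0.17 without mutant replicate 1, −0.20 without wild type replicate 3 and −0.24 without wild type replicate 2. With a pseudocount of 64 it was −0.19.

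The 9 UGT71 members had a median of 0.09, which turned to −0.0345 without the dimmest 25%, −0.0989 with the covariate, −0.021 without wild type replicate 3 and −0.0182 without mutant replicate 2. *UGT71B1* stood at 559.5, 507.6 and 496.0 in the wild type and 443.1, 430.7 and 397.5 in the mutant. It was lower on each mutant array, at −0.29 ± 0.11 (adjusted p = 0.399) and −0.21 with the covariate. *UGT71C1*, which glucosylates flavonoids and other phenolics in vitro, gave 118.5, 160.0 and 187.4 in the wild type and 113.2, 105.0 and 110.4 in the mutant. The groups were just apart, at −0.43 ± 0.22 (adjusted p = 0.553). *UGT71C4* was higher on each mutant array by a small step, from 842.9 ± 42.0 to 900.2 ± 8.11, a change of 0.09 ± 0.09, whereas *UGT71C2* and *UGT71C3* overlapped, at 0.18 ± 0.36 and 0.01 ± 0.26.

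Among the UGT76E genes, *UGT76E11*, which glucosylates flavonoids, had signals of 484.3, 463.7 and 513.1 in the wild type and 445.9, 378.2 and 283.7 in the mutant. Each mutant array was lower, at −0.41 ± 0.16 (adjusted p = 0.396), but the change was −0.06 with the RNA quality covariate. Its neighbour *UGT76E12* was dim, at −0.54 ± 0.41, as were *UGT76E1* and *UGT76E2*, at 0.01 ± 0.31 and −0.04 ± 0.51. Families with a single measured member gave *UGT80B1*, a sterol glucosyltransferase gene, at 0.17 ± 0.12, *UGT87A2*, which affects flowering time, at −0.12 ± 0.11, and *UGT88A1* at 0.22 ± 0.10 (adjusted p = 0.511). The second sterol glucosyltransferase gene, *SGT* or UGT80A2, was lower on each mutant array, at −0.20 ± 0.12 (adjusted p = 0.624). For the supply of UDP-sugars, 1 of 24 listed genes was measured, *USP*, a UDP-sugar pyrophosphorylase gene, at −0.02 ± 0.11, and at 0.23 with the covariate.

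Position in the genome was used for gene order only, as RefSeq gives it for assembly TAIR10.1. Of the 66 members, 39 lay beside another member, with at most 1 protein-coding gene between them, in 17 runs of up to 4. In 8 of the 17 runs all members had a change of the same sign. As 48.3% of all probe sets were below 0, members of a short run often share a sign in any case. The count was not tested. The run of *UGT85A7*, *UGT85A2*, *UGT85A5* and *UGT85A3* on chromosome 1 held changes of 0.73, −0.05, −0.49 and 0.02. The run of *UGT84A1*, *UGT84A3* and *UGT84A4* held −1.27, 0.47 and −0.45. *UGT76C2* and *UGT76C1* on chromosome 5 were both within 0.03 of 0, with SE of 0.17 and 0.16. With the covariate they were at −0.13 and −0.29.

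**Figure D4:**
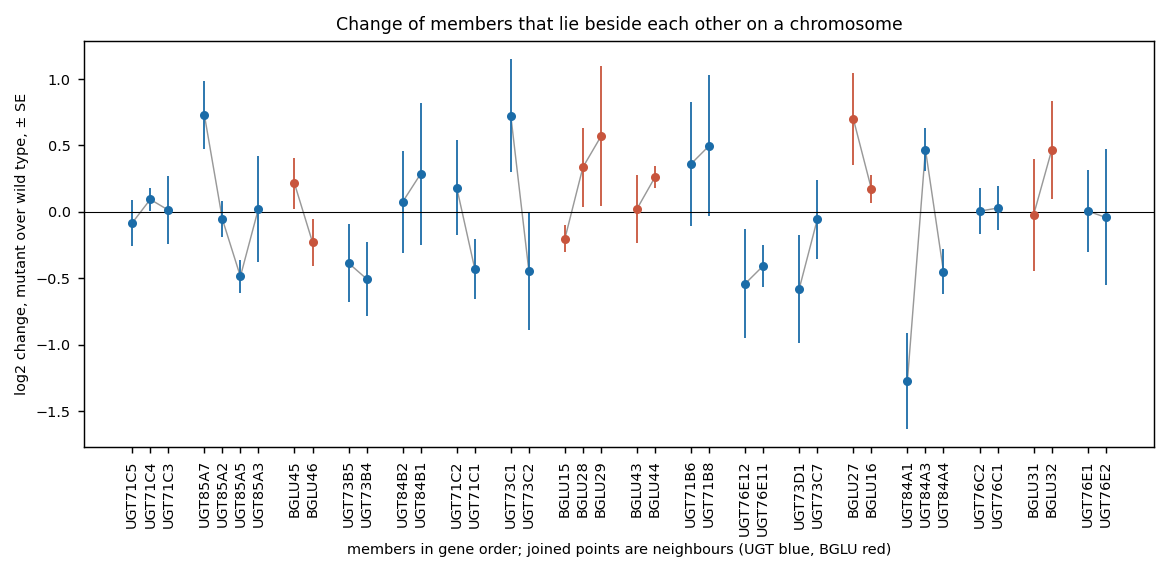
Log2 change, mutant over wild type, with bars of 1 SE, for the 39 members that lie beside another member. Members stand in gene order, joined points belong to one run, UGT are blue and BGLU red. The UGT85A and UGT84A runs hold changes on both sides of 0.

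The 22 dim members had changes above 0 in 14 cases. Wild type replicate 3 was the lowest of the 6 arrays for 7 of them, and their median signal was 6.0 on that array, against 14.2 to 25.9 on the others. Over all 5687 dim probe sets the median signal was 12.1 on wild type replicate 3 and 17.0 on mutant replicate 3, the highest of the arrays. The changes of *BGLU36*, *BGLU41*, *BGLU27* and *UGT84A1* rest on dim signals. Wild type replicate 3 was the lowest array for *BGLU41* (2.8) and *BGLU27* (6.1). For *BGLU36* the lowest was wild type replicate 1 (2.1), and for *UGT84A1* wild type replicate 3 was the highest (57.1). At low signal the log2(signal + 16) scale shrinks log2 differences, those from noise included.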

How the data were processed

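The deposited values are MAS5 signal intensities from 6 ATH1 arrays, per the submitters' processing notes, whose version and settings the labels do not give. After 2% was trimmed at each end the mean of the deposited intensities was 500 on each array. Of 22810 probe sets 64 controls were left out. Genes came from the platform's annotation table, in which 13513 probe sets have 1 gene, and gene order from RefSeq (assembly TAIR10.1), where all 66 members were found.

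Intensities were transformed to log2(signal + 16) without renormalization, and dim probe sets were kept. No column belonged to other samples. All 22746 probe sets were fitted with limma 3.58.1 in R 4.3.3 (lmFit, eBayes with an intensity trend, group as the single term), with Benjamini-Hochberg adjustment over all of them. The fit was tested on 20 simulated data sets, each with 200 changed probe sets. At an adjusted p under 0.05 (limma) it recovered 23.2% of log2 changes of 0.5 and 58.7% of changes of 1. For changes of 1.5 and 2 the shares were 77.6% and 95.4%, and 6.11% of calls were false. Members that did not pass may therefore still have changed by the smaller of these sizes. Figures used matplotlib 3.10.9.

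Text values are for members past the threshold, the 12 with the smallest p, and, for BGLU and each UGT family with at least 3 probe sets, the 2 with the smallest p and the 2 brightest. Of each pathway list it took the 2 with the smallest p. Members named beyond this rule complete their families or were chosen after their values were seen. The members, lists and tests were chosen with earlier results of these data known. Alternatives were other pseudocounts (1 and 64), a filter on the dimmest 25%, median centring, quantile normalization, array weights, eBayes without trend or robust, an RNA quality covariate, the replicate number as a block, and each array left out.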

Additional observations from a re-analysis of the deposited data

Results flagged for a closer look

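A probe set paired with both a UGT gene and a further gene, and therefore no member, was singled out because its mutant signals all exceeded its wild type signals. Its signals were 343.2, 367.1 and 373.7 in the wild type and 405.2, 416.4 and 427.6 in the mutant, with means of 361.3 ± 16.1 (SD, n = 3) and 416.4 ± 11.2. The log2 change was 0.20 ± 0.12 (limma adjusted p = 0.603), so it did not pass, and which of its genes the signal comes from was not tested. Of all probe sets, 8.11% had each mutant array higher. The other probe sets shared by several genes, with a UGT or BGLU among them, had overlapping groups. They were at −0.09 ± 0.09 (*UGT73B2* and *UGT73B3*), −0.27 ± 0.16 (*BGLU21* and *BGLU22*) and 0.35 ± 0.16 (*UGT89B1* and a further gene).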

How the results depend on the processing

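The number of changed probe sets among all was 75, and moved to 180 without the dimmest 25%, 113 with robust eBayes, 7 without the intensity trend, 13 with the RNA quality covariate, and 20 to 88 when 1 array was left out (34, 46 and 43 without wild type replicates 1, 2 and 3, and 88, 20 and 31 without mutant replicates 1, 2 and 3). Members that passed numbered 0 in each of these fits except that without wild type replicate 3, where *BGLU19* passed, so the range over left-out arrays was 0 to 1. At an unadjusted p under 0.05 the number was 15 (limma). The median change of UGT, −0.05, was −0.15 with the covariate and −0.0938 to −0.0237 over left-out arrays. That of BGLU, 0.16, was −0.23 with the covariate, 0.0205 without the dimmest 25% and 0.0185 to 0.24 over left-out arrays. Of the 37 genes that the naming rule gave, 29 kept their direction in all 16 alternatives that gave a value. Many of the 37 were picked for a small p in these same data, which favours a kept direction. Over all 66 members the covariate alone turned the sign of 18. Among the 37, the sign turned with the covariate for AT1G54020 (0.48), *UGT74B1* (0.0025), *UGT76C1* (−0.29) and *USP* (0.23), and for *USP* with quantile normalization (0.0048). With 1 array left out the changes among the 37 ranged across 0 for *BAN* (−0.0032 to 0.75), *UGT74B1* (−0.0614 to 0.0341), *UGT74D1* (−0.18 to 0.0384), *UGT76C1* (−0.0853 to 0.17), *UGT85A2* (−0.12 to 0.0199), *USP* (−0.0957 to 0.0839) and *WES1* (−0.23 to 0.12). The causes were not tested. Same-numbered samples did not deviate together (correlations of −0.003, −0.002 and −0.029), so the numbers are not taken as pairs, and with the replicate block 85 probe sets passed and 0 members did. Low signal limits the 22 dim members.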
